A study of Mus musculus with 15 samples.

Results

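Cholesterol and fatty acid synthesis genes were followed in cultured mouse neural stem cells over the first day without growth factors. The list held 33 genes: 18 enzymes of sterol synthesis, 4 regulators or transport proteins of the sterol pathway, and 11 genes of fatty acid synthesis, elongation and desaturation. They were found by the gene symbol of the platform annotation, with 1 probe set per gene, the one with the highest mean over the 15 arrays. In all, 30 of the 33 were found among 12393 genes with a symbol of their own (17 sterol enzymes, 3 regulators and transport genes, 10 fatty acid genes). Acat2, Insig1 and Acsl3 were not analysed here. Of the 30 genes, 29 were among the 7909 genes above the filter on low values (a mean over all arrays above 0.51 on the log2 scale). Acaca, with group means of 0.22, 0.13 and 0.14, was not.

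The cells came from the subventricular zone, the stem cell niche beside the lateral ventricles, of adult female C57Bl6/J mice aged 6 months, and had been grown as neurospheres through several passages. The first group of 5 arrays was undifferentiated and grown with the growth factors bFGF and EGF. The other 2 groups of 5 were taken 12 h and 24 h after those factors were withdrawn and the cells were placed on poly-D-lysine with 5% serum. Growth factor loss, serum and the new surface therefore changed together and cannot be told apart. The labels do not say whether the 5 samples of a group were separate cultures or animals, so the p-values measure only how these samples varied, and that variation may be technical. Replicates are numbered in accession order, and the labels state no pairing between groups. The codes in the sample titles do form 6 runs of consecutive numbers, most of which hold arrays of different groups. What these runs mean is not stated, and the main fit ignores them (correlation within runs 0.291). Counts from a fit with the runs as a random block are given at the end.

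Cells build cholesterol from acetyl-CoA through mevalonate, isoprenoid units, squalene and lanosterol, and the last enzymes turn lanosterol into cholesterol. Fatty acids share the same starting unit but are made by acetyl-CoA carboxylase and fatty acid synthase, then lengthened by elongases and given double bonds by desaturases. Both branches are targets of the SREBP transcription factors, of which SREBP-2 acts mainly on sterol genes and SREBP-1 mainly on fatty acid genes. Sterol-laden cells hold SREBPs in the endoplasmic reticulum, and promoters of this pathway often carry a sterol regulatory element near a CCAAT box, the site of NF-Y. Growing neural cells make most of their own cholesterol, and oligodendrocytes need large amounts for myelin.

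Some features of the arrays bear on every value below. For 13 of the 15 samples the code in the title differed from the array file code given in its description, and 8 of these file codes are the title code of a sample in another group. Groups were taken from the titles. With groups taken from the file codes, limma called 0 of 7909 genes at either time, 81 and 118 of them having an unadjusted p under 0.05 at 12 h and 24 h. The title codes end in 1 of 3 numbers, here suffixes A, B and C, whose meaning the labels do not give. Arrays shared deviations by suffix (median correlation of deviations from the group means 0.327 over 25 pairs of the same suffix and -0.164 over 50 pairs of different suffixes, across groups and across genes), so some values are also given from a fit blocked on the suffix, and by suffix. Suffix C holds undifferentiated replicate 5, 12 h replicate 5 and 24 h replicates 4 and 5. The 3′/5′ signal ratio of beta-actin, a sign of RNA and labelling quality, was 1.95 ± 0.238 in undifferentiated arrays, 2.36 ± 0.148 at 12 h and 2.78 ± 0.365 at 24 h (SD, n = 5). The 12 h replicates 3 and 4 were closer to each other than any other pair (SD of their difference 0.150, next closest pair 0.277).

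Markers checked the label of the cells. All 8 neural stem and progenitor markers, Nes, Sox2 and Fabp7 among them, were above the filter in the data. By 24 h, 3 of them rose and 3 fell (12.7% and 19.4% of all genes). The 8 tested myelin markers all rose by 24 h (12.7% of all genes). Mal and Mobp had undifferentiated means of 0.23 and 0.34, below the filter level of 0.51, and passed it only through later arrays. Their rise is therefore no evidence by itself. Mog was below the filter and was not tested. The summed linear signal of the 9 myelin markers measured ran from 131 to 302 in undifferentiated arrays, from 147 to 1680 at 12 h and from 502 to 2330 at 24 h. Of 7 astrocyte markers 6 rose by 24 h (12.7% of all genes). Their summed signals were 466 to 949 in undifferentiated arrays, 794 to 2090 at 12 h and 1200 to 2880 at 24 h. None of 8 microglial, 6 endothelial or 5 adipocyte markers was above the filter, Aif1, Pecam1 and Adipoq included. Pdgfrb was the only one of 6 pericyte and fibroblast markers above it. The part of the changing cell makeup in the values below was not tested. In bulk RNA, fewer cells of a type and less RNA per cell cannot be told apart.

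The promoters of the members are shown first, because sterol genes are known for a shared promoter layout. RefSeq (GRCm38.p6) gave windows of 300 bases, 250 before to 50 after an annotated start, for 23 of the 30 genes. Each was searched on both strands for CCAAT (the NF-Y box), GGGCGG (the Sp1 box), TCACNCCAC (a form of the sterol regulatory element) and its classic form, which is TCACNCCAC with an A added in front and C in place of N, so that each match of it is also a match of TCACNCCAC. A CCAAT can overlap a GGGCGG match on the other strand by its CC. CCAAT was present for 14 of 14 sterol enzymes with a window, for both Srebf1 and Srebf2, and for 4 of 7 fatty acid genes, beside 37.4% of all 32851 windows and 44.1% of 6492 tested genes with a window. GGGCGG was present for 13 of the 14 sterol enzymes and 3 of the 7 fatty acid genes, beside 35.7% of windows and 72.5% of tested genes. TCACNCCAC was found for 1 member, Hmgcs1, from 137 to 129 bases before its start (1.24% of all windows), and the classic form for 0 members (0.0913% of windows). These matches are descriptions of letters within the window and show no binding.

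The 250 bases before the start are printed for the 4 sterol enzymes whose 24 h arrays all lay below every undifferentiated array (Cyp51, Dhcr7, Nsdhl and Ebp), for Hmgcs1, the sterol enzyme with the most positive difference, and for Fasn and Elovl6, the fatty acid genes that fell. Each runs 5′ to 3′ along the gene, with capitals marking CCAAT on either strand (ATTGG on the reverse) and TCACNCCAC. Dhcr7 has 3 annotated starts with a window, and the one shown is the one that holds CCAAT.
Cyp51, chr5:4104698-4104947, minus strand: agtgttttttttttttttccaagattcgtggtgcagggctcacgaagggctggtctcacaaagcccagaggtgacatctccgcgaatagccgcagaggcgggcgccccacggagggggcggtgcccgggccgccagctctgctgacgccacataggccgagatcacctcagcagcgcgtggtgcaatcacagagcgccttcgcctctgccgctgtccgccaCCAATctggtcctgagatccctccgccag
Dhcr7, chr7:143829964-143830213, plus strand: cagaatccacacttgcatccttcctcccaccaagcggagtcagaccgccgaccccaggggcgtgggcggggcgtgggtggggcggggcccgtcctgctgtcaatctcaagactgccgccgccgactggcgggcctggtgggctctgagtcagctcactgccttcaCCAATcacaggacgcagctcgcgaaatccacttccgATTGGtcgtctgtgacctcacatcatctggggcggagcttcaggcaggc
Nsdhl, chrX:72918271-72918520, plus strand: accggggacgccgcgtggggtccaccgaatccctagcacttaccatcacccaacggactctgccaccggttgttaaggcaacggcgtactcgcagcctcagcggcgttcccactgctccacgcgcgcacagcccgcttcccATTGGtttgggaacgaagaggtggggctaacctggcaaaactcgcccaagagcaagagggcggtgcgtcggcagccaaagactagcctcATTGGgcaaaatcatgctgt
Ebp, chrX:8193513-8193762, minus strand: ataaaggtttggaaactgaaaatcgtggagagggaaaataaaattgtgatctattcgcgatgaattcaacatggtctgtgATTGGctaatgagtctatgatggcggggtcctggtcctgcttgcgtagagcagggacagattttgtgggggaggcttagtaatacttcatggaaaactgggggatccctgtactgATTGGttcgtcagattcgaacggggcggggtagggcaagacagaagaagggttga
Hmgcs1, chr13:119690101-119690350, plus strand: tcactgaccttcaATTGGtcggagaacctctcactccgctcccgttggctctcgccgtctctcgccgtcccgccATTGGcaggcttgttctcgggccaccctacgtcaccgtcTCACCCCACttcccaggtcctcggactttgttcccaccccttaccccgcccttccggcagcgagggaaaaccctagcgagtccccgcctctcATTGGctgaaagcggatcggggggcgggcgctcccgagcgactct
Fasn, chr11:120824548-120824797, minus strand: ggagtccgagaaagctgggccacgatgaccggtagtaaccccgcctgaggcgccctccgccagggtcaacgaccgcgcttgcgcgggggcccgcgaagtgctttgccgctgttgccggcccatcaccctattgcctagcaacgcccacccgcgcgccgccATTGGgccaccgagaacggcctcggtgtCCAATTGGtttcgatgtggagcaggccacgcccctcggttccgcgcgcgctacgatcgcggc
Elovl6, chr3:129532136-129532385, plus strand: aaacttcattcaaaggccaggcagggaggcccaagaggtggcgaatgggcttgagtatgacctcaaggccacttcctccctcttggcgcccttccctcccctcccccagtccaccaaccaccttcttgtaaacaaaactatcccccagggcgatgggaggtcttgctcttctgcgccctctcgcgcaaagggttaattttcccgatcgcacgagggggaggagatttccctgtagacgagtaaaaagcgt
In the 250 bases printed, the CCAAT nearest the start lay from 29 to 25 bases before it for Cyp51, from 49 to 45 for Dhcr7, from 20 to 16 for Nsdhl, from 55 to 51 for Ebp and from 45 to 41 for Hmgcs1. In Fasn, matches on opposite strands overlap, from 62 to 58 and from 59 to 55 bases before the start. The Elovl6 window held neither CCAAT nor GGGCGG.

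By 24 h the sterol branch held many genes that fell, 6 of them among the enzymes that turn lanosterol into cholesterol. Of 17 sterol enzymes tested, 9 fell and 0 rose at 24 h against undifferentiated cells, where 19.4% of all genes fell and 12.7% rose (limma, Benjamini-Hochberg adjusted p under 0.05 over 7909 genes). The median difference of the 17 was -0.77 on the log2 scale, and that of all tested genes was -0.06. At 12 h, 2 of the 17 fell and 0 rose (4.56% and 3.30% of all genes), with a median of -0.38 beside 0.004 for all genes, although 15 of 17 differences were below 0 (49.6% of all genes). No member passed the test in either comparison when the beta-actin ratio was a covariate or when groups followed the file codes. With the ratio as a covariate, 170 of all genes passed at 12 h and 34 at 24 h. The ratio ran from 1.63 to 2.22 in undifferentiated arrays, from 2.21 to 2.59 at 12 h and from 2.23 to 3.21 at 24 h. It largely followed the group, so that fit cannot tell the ratio and the group apart. At 24 h the count of 9 sterol enzymes became 12 without undifferentiated replicate 5 (17.4% of all genes fell) and 8 without suffix C (7.74% of all genes). It became 6 without any single one of undifferentiated replicates 3 and 4 and 24 h replicates 1 and 5 (15.3% to 18% of all genes).

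**Figure D1:**
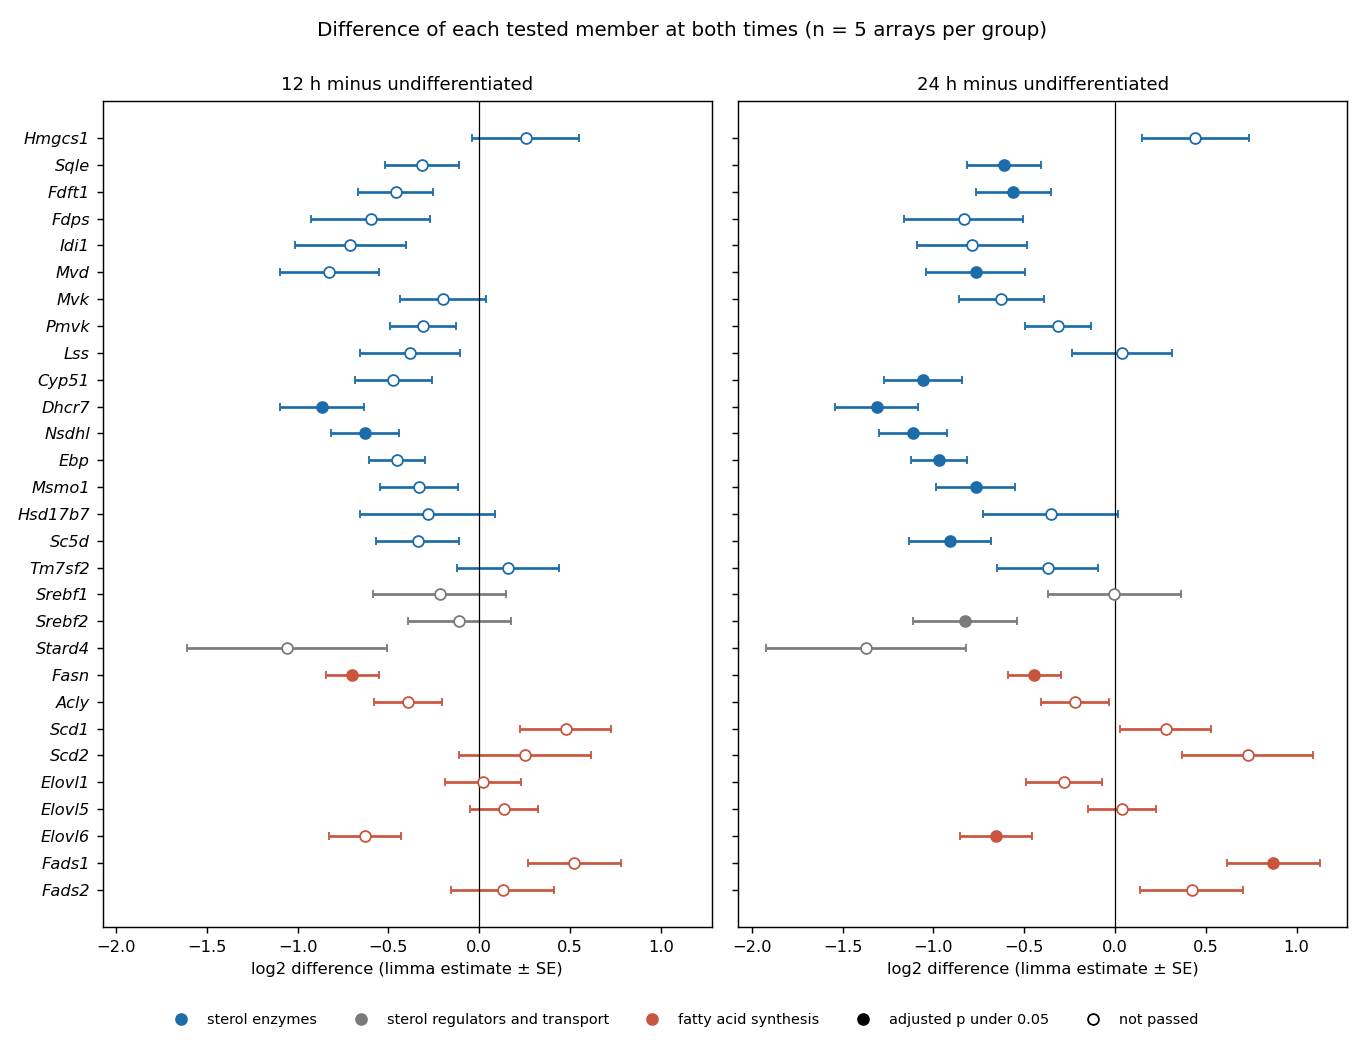
Difference of each of the 29 tested genes from undifferentiated cells at 12 h and 24 h, on the log2 scale with the limma standard error (n = 5 arrays per group); colours stand for the branches. At 24 h, 15 of 17 sterol enzymes lie below 0, while the 9 fatty acid genes spread from -0.66 to 0.87.

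The 8 enzymes that turn lanosterol into cholesterol were all below 0 at 24 h, as were 55.1% of all genes (median -0.94, range -1.31 to -0.35), and 6 of them fell. Dhcr7, the reductase of the last step of cholesterol synthesis, measured 5.66, 5.12, 5.13, 5.39 and 4.52 in undifferentiated replicates 1 to 5, 3.95, 4.60, 4.20, 4.33 and 4.42 at 12 h, and 3.53, 4.11, 4.12, 4.32 and 3.18 at 24 h (log2 level). All 24 h arrays were below all undifferentiated arrays, as for 16% of all genes, and the lowest undifferentiated one was replicate 5. The fall was -0.87 ± 0.23 (SE) at 12 h (limma adjusted p = 0.0325) and -1.31 ± 0.23 at 24 h (limma adjusted p = 0.000876), which is 2.48-fold lower at 24 h. The 12 h call held in 8 of the 15 fits that each left out 1 array.

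Nsdhl, which removes methyl groups from the sterol ring as part of the C-4 demethylation complex, measured 6.35, 6.02, 6.09, 6.61 and 5.48 in undifferentiated arrays, 5.32, 5.84, 5.34, 5.44 and 5.47 at 12 h, and 4.74, 5.26, 5.25, 4.94 and 4.81 at 24 h. Every 24 h array was below every 12 h array (2.21% of all genes) and every undifferentiated array. Its difference was -0.63 ± 0.19 at 12 h (limma adjusted p = 0.0489) and -1.11 ± 0.19 at 24 h (limma adjusted p = 0.000674). The 12 h call held in 1 of 15 fits with an array left out, and the 24 h call in all 15.

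Ebp, the sterol isomerase, stood at 3.40, 3.15, 3.38, 3.92 and 3.42 in undifferentiated arrays, 2.91, 3.15, 3.12, 2.92 and 2.89 at 12 h, and 2.34, 2.33, 2.44, 2.92 and 2.39 at 24 h. It is the one called sterol enzyme for which undifferentiated replicate 5 was not among the low arrays, and its 24 h group did not overlap the undifferentiated one. The difference at 24 h was -0.97 ± 0.16 (limma adjusted p = 0.000542). Cyp51, the lanosterol demethylase, measured 5.80, 5.69, 6.17, 6.58 and 5.35 in undifferentiated arrays, 5.06, 5.51, 5.65, 5.52 and 5.50 at 12 h, and 4.40, 5.06, 5.06, 4.60 and 5.19 at 24 h. Its groups did not overlap at 24 h either, and the fall was -1.06 ± 0.21 (limma adjusted p = 0.00204), or 2.08-fold.

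Msmo1 and Sc5d fell at 24 h with groups that overlapped through undifferentiated replicate 5. Msmo1, the sterol methyl oxidase that works with Nsdhl, measured 6.88, 6.57, 6.65, 7.30 and 6.27 in undifferentiated arrays, 6.13, 6.42, 6.48, 6.54 and 6.43 at 12 h, and 5.29, 6.41, 6.24, 5.65 and 6.24 at 24 h, a difference of -0.77 ± 0.22 at 24 h (limma adjusted p = 0.0133). Sc5d, the sterol desaturase just before Dhcr7, measured 4.98, 4.64, 5.08, 5.47 and 3.93 in undifferentiated arrays, 4.14, 4.56, 4.71, 4.66 and 4.34 at 12 h, and 3.89, 3.81, 4.06, 3.55 and 4.24 at 24 h, a difference of -0.91 ± 0.23 at 24 h (limma adjusted p = 0.00717). The 24 h calls of Cyp51, Dhcr7, Nsdhl, Ebp, Msmo1 and Sc5d all held in 15 of 15 fits with an array left out. The other enzymes of this stretch, Hsd17b7 and the sterol reductase Tm7sf2, differed by -0.35 and -0.37 at 24 h and did not pass the test.

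**Figure D2:**
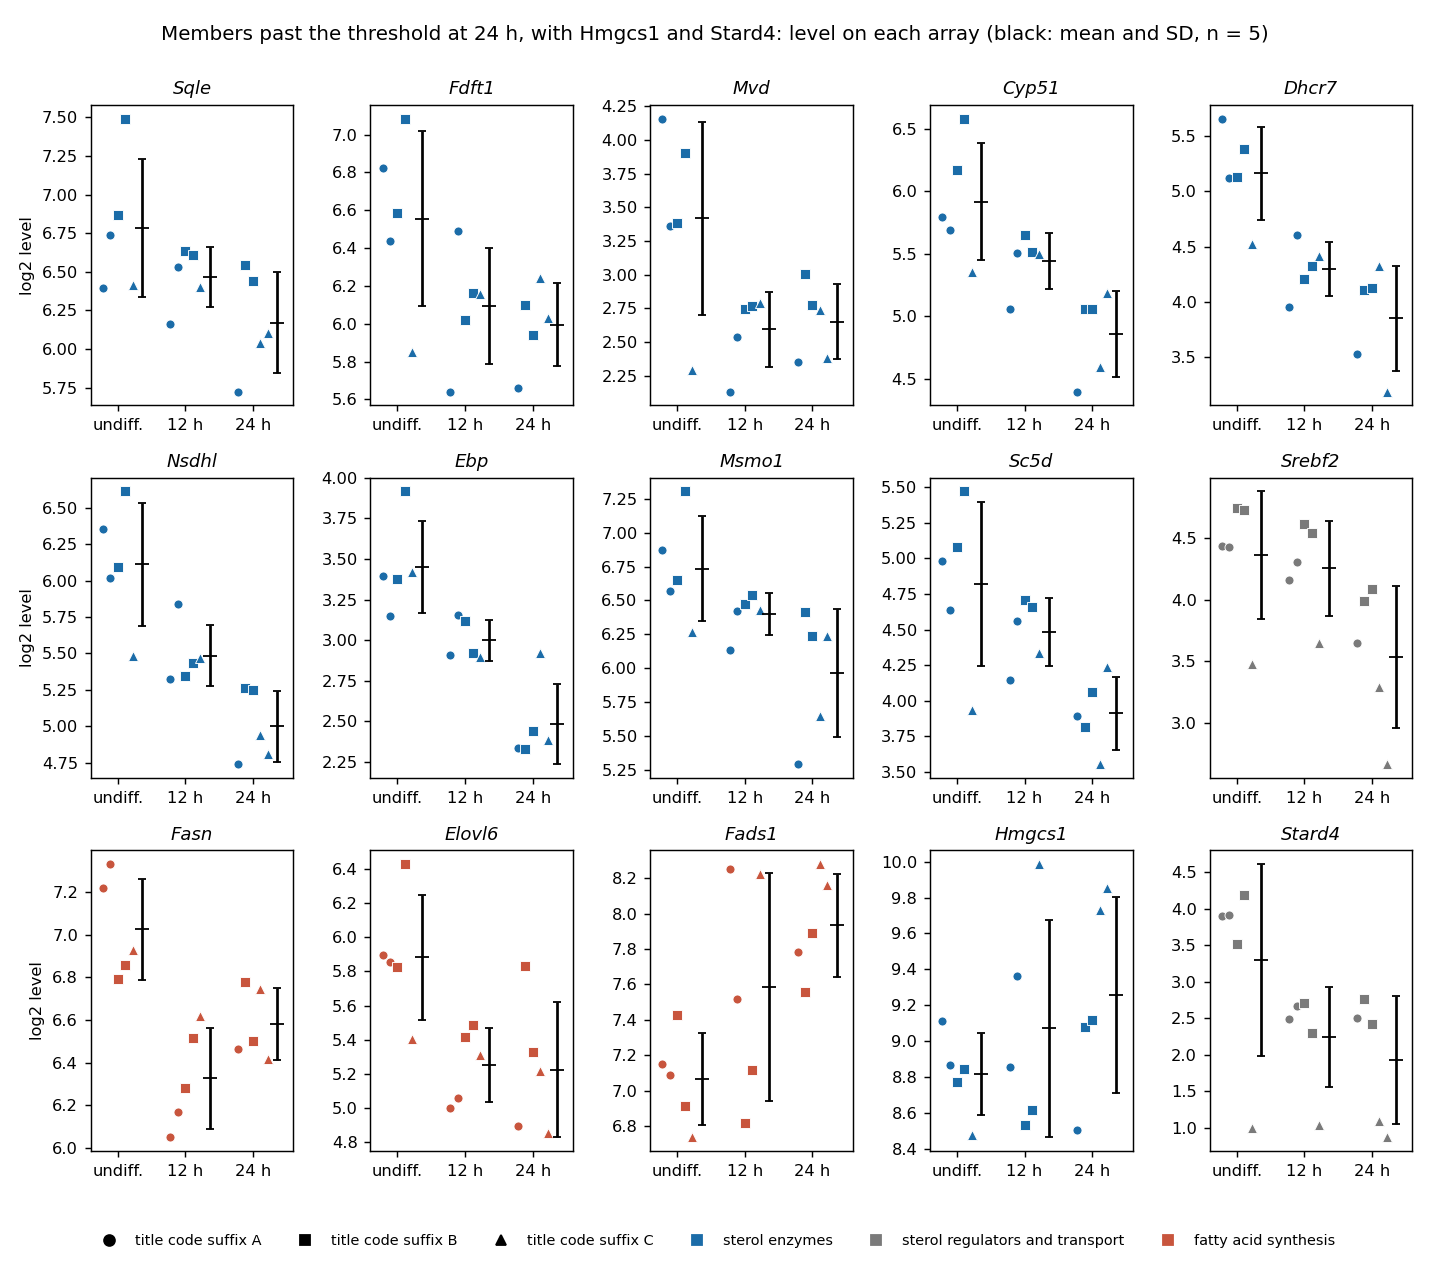
Log2 level on each array of the genes past the threshold at 24 h, with Hmgcs1 and Stard4, by group; black marks the mean and SD (n = 5) and marker shapes the title code suffix. The 24 h arrays of Cyp51, Dhcr7, Nsdhl and Ebp lie below all undifferentiated arrays, and undifferentiated replicate 5 of suffix C is the lowest of its group for Dhcr7 at 4.52 and for Sc5d at 3.93.

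Of the 3 enzymes that make squalene and close it to lanosterol, 2 fell at 24 h (19.4% of all genes). Sqle, the squalene epoxidase, measured 6.40, 6.74, 6.87, 7.49 and 6.41 in undifferentiated arrays, 6.16, 6.53, 6.64, 6.61 and 6.40 at 12 h, and 5.72, 6.54, 6.44, 6.04 and 6.11 at 24 h, and its difference was -0.61 ± 0.20 at 24 h (limma adjusted p = 0.0307). Fdft1, the squalene synthase, measured 6.82, 6.44, 6.58, 7.08 and 5.85 in undifferentiated arrays, 5.64, 6.49, 6.02, 6.16 and 6.16 at 12 h, and 5.66, 6.10, 5.94, 6.24 and 6.03 at 24 h, with a difference of -0.56 ± 0.21 at 24 h (limma adjusted p = 0.0477). Groups overlapped for both genes, and with an array left out the call of Fdft1 held in 4 of 15 fits and that of Sqle in 10. After median centring neither passed (limma adjusted p = 0.164 for Fdft1 and 0.0859 for Sqle). Lss, the lanosterol synthase, differed by 0.04 at 24 h.

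The 6 mevalonate pathway enzymes gave 1 call at 24 h, a share no higher than the 19.4% of all genes that fell, with a median of -0.70. Mvd, the mevalonate diphosphate decarboxylase, measured 4.16, 3.36, 3.38, 3.90 and 2.29 in undifferentiated arrays, 2.13, 2.53, 2.74, 2.77 and 2.79 at 12 h, and 2.35, 3.01, 2.78, 2.74 and 2.38 at 24 h. Its 24 h difference was -0.77 ± 0.27 (limma adjusted p = 0.0421) and held in 6 of 15 fits with an array left out, but not after quantile normalisation (0.0778) or median centring (0.0665). The other undifferentiated arrays stood above all later ones, while replicate 5 was among the lowest of all. Fdps (-0.83), Idi1 (-0.79) and Mvk (-0.63) had limma adjusted p-values of 0.0626, 0.0568 and 0.0529 at 24 h, and Pmvk differed by -0.31.

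Hmgcs1, the synthase at the entry of the pathway, had the most positive difference of the sterol enzymes, and was not tested against the others. It measured 9.11, 8.87, 8.77, 8.84 and 8.47 in undifferentiated arrays, 8.86, 9.36, 8.53, 8.62 and 9.99 at 12 h, and 8.51, 9.08, 9.12, 9.73 and 9.85 at 24 h. Its difference was 0.26 ± 0.29 at 12 h and 0.44 ± 0.29 at 24 h (limma adjusted p = 0.266 at 24 h), so a change was not shown. After quantile normalisation the 24 h difference was 0.01. The suffix C arrays at 12 h and 24 h were the highest of all, and the 24 h difference by suffix (A, B, C) was -0.48, 0.29 and 1.32. Of the sterol enzymes, Hmgcs1 and Lss were the pair with a positive difference at 24 h.

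Among the regulators and transport genes, Srebf2, which encodes SREBP-2, fell at 24 h. It measured 4.44, 4.43, 4.74, 4.73 and 3.48 in undifferentiated arrays, 4.16, 4.31, 4.61, 4.54 and 3.64 at 12 h, and 3.65, 3.98, 4.09, 3.29 and 2.66 at 24 h. The 12 h mean stood near the undifferentiated mean (-0.11 ± 0.29). The 24 h difference was -0.83 ± 0.29 (limma adjusted p = 0.0363), a call that held in 8 of 15 fits with an array left out. Srebf1, which encodes SREBP-1, differed by -0.01 at 24 h, or by 0.14 after median centring, and ranged from 6.13 to 7.92 there. Both genes also code for protein forms whose activity depends on cleavage, which an RNA level does not show.

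Stard4, a carrier that moves cholesterol between membranes, measured 3.89, 3.91, 3.51, 4.19 and 0.99 in undifferentiated arrays, 2.49, 2.67, 2.70, 2.30 and 1.04 at 12 h, and 2.50, 2.76, 2.42, 1.08 and 0.87 at 24 h. Undifferentiated replicates 1 to 4 were above all later arrays, and the suffix C arrays were near 1 in every group. Its difference of -1.37 ± 0.55 at 24 h did not pass the test (limma adjusted p = 0.0667). With the suffix as a block it was -0.98 ± 0.22 (limma adjusted p = 0.00301), and the 12 h difference of -1.06 also passed (limma adjusted p = 0.00449).

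Calls among the fatty acid genes went in both directions at 24 h, in shares near those of all genes. Of 9 tested, 2 fell and 1 rose at 24 h (19.4% and 12.7% of all genes). At 12 h, 1 fell and 0 rose (4.56% and 3.30% of all genes). The median difference was 0.13 at 12 h and 0.04 at 24 h. Without suffix C, 0 of the 9 passed at 24 h (7.74% of all genes fell). The count that fell was 0 without 24 h replicate 1 or 5 (18% and 15.4% of all genes). It was 1 without undifferentiated replicate 1, 2 or 4 or 24 h replicate 3 (15.3% to 18.9% of all genes).

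Fasn, the fatty acid synthase that makes palmitate, measured 7.22, 7.33, 6.79, 6.86 and 6.93 in undifferentiated arrays, 6.05, 6.17, 6.28, 6.52 and 6.62 at 12 h, and 6.46, 6.78, 6.50, 6.74 and 6.42 at 24 h. The undifferentiated group overlapped neither later group, and undifferentiated replicate 5 was not its lowest array. The difference was -0.70 ± 0.15 at 12 h (limma adjusted p = 0.0132), where it was the only member whose groups did not overlap, a state that 4.74% of all genes showed in that direction. It was -0.44 ± 0.15 at 24 h (limma adjusted p = 0.0293, or 0.254 after median centring, where the call was lost). The 24 h minus 12 h difference of 0.25 did not pass the test. Acly, which supplies acetyl-CoA from citrate, differed by -0.39 and -0.22 at 12 h and 24 h and did not pass.

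Of the elongases, Elovl6, which lengthens palmitate, fell. It measured 5.90, 5.85, 5.83, 6.43 and 5.40 in undifferentiated arrays, 5.00, 5.06, 5.42, 5.49 and 5.31 at 12 h, and 4.89, 5.83, 5.33, 5.22 and 4.85 at 24 h. Undifferentiated replicate 5 lay within the range of the later arrays. The 24 h difference was -0.66 ± 0.20 (limma adjusted p = 0.0195), and the 12 h difference of -0.63 had an adjusted p of 0.0620 in limma, or 0.0125 with the suffix as a block. Elovl1 and Elovl5 differed by -0.28 and 0.04 at 24 h.

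With the probe sets used, the 4 desaturases were all above 0 at both times, and 1 of them rose at 24 h (12.7% of all genes). Of all genes, 49.6% were below 0 at 12 h and 55.1% at 24 h. Fads1, the delta-5 desaturase of polyunsaturated fatty acids, measured 7.15, 7.09, 7.43, 6.91 and 6.74 in undifferentiated arrays, 8.25, 7.52, 6.82, 7.12 and 8.23 at 12 h, and 7.78, 7.56, 7.89, 8.28 and 8.16 at 24 h. Its 24 h arrays were all above the undifferentiated ones (9.04% of all genes), and the 12 h group spanned both. The rise was 0.87 ± 0.26 at 24 h (limma adjusted p = 0.0168), 1.83-fold. Scd2, the stearoyl-CoA desaturase typical of brain, was 0.73 ± 0.36 higher without passing (limma adjusted p = 0.135) and passed with the suffix as a block (0.55 ± 0.17, limma adjusted p = 0.0166). Fads2 and Scd1 differed by 0.42 and 0.28 and did not pass. After quantile normalisation the 24 h differences of Fads1, Scd2, Fads2 and Scd1 were 0.68, 0.11, 0.28 and 0.03. Other probe sets above the filter level differed at 24 h by 0.04 and -0.29 for Scd2, by 0.04 for Fads2 and by -1.02 for Scd1.

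The branches were then set side by side on each array, as the mean over a branch of each gene's log2 value minus its undifferentiated mean. The sterol enzymes stood at 0.14, -0.12, 0.04, 0.57 and -0.62 in undifferentiated replicates 1 to 5, at -0.81, -0.18, -0.37, -0.39 and -0.24 at 12 h, and at -1.05, -0.47, -0.56, -0.54 and -0.58 at 24 h. The fatty acid genes ran from -0.10 to 0.05 in undifferentiated arrays, from -0.30 to 0.36 at 12 h and from -0.18 to 0.39 at 24 h. Undifferentiated replicate 5 was the lowest of its group in both branches, at -0.62 for sterol enzymes, within the range of the 24 h arrays, and at -0.10 for fatty acid genes, whose groups overlapped at all times.

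The sterol level minus the fatty acid level was 0 ± 0.40 in undifferentiated arrays, -0.38 ± 0.35 at 12 h and -0.72 ± 0.23 at 24 h (SD, n = 5). It ran from -0.53 to 0.58 in undifferentiated arrays and from -0.93 to -0.42 at 24 h, so the groups overlapped through undifferentiated replicate 5. No p is given for this level, since it is a score over chosen genes. The difference between the branch medians at 24 h was -0.81, and it was -0.37 when each gene was the mean of all its probe sets.

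**Figure D3:**
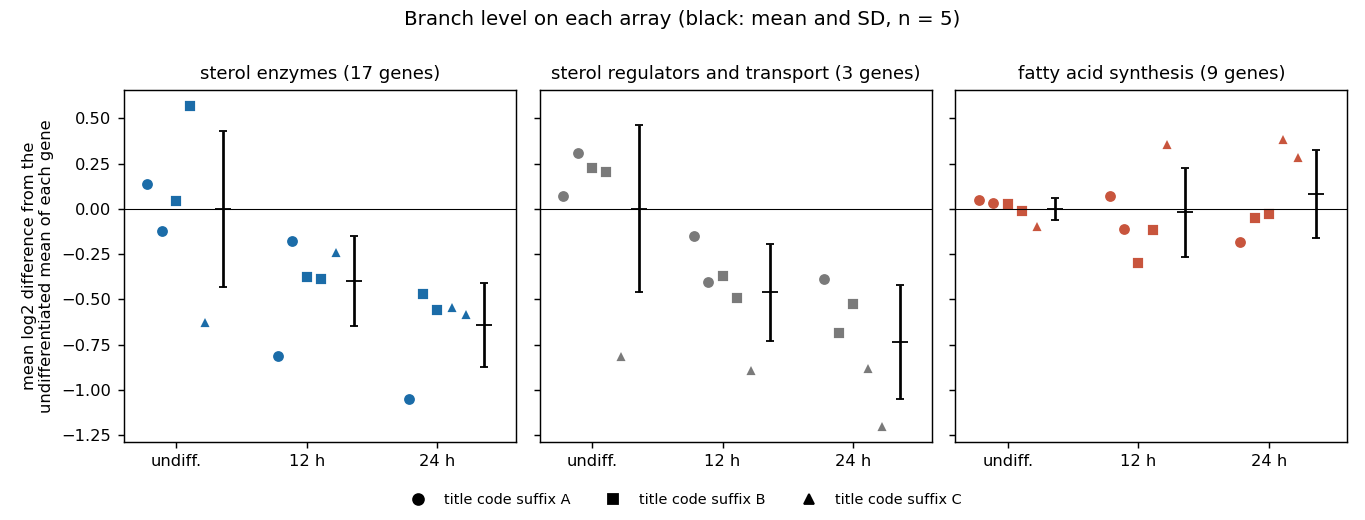
Branch level on each array (mean over the genes of the log2 value minus the gene's undifferentiated mean) for sterol enzymes, sterol regulators and transport genes, and fatty acid genes; black marks the mean and SD (n = 5) and marker shapes the title code suffix. Sterol enzymes average -0.64 at 24 h and fatty acid genes 0.08, and undifferentiated replicate 5 sits at -0.62 for the sterol enzymes.

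Between 12 h and 24 h, 0 of the 29 members passed the test, as 0.417% of all genes did. Of the 29, 5 had an unadjusted p under 0.05 in limma (15% of all genes): Cyp51, Nsdhl, Ebp, Sc5d and Srebf2, all lower at 24 h. With the suffix as a block, Srebf2 passed (-0.57 ± 0.12, limma adjusted p = 0.0275), where 2.55% of all genes did.

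The suffix block and the values within suffixes show how the differences varied between suffixes. With the block, 12 of 17 sterol enzymes fell at 24 h and 4 at 12 h, where 23.7% and 10.7% of all genes fell, and Scd2 and Fads1 rose at 24 h (18.1% of all genes). The median 24 h difference of the sterol enzymes was -0.97 within suffix A, -0.81 within B and 0.01 within C, and at 12 h it was -0.46, -0.67 and 0.31. Suffix C has 1 undifferentiated array, replicate 5, so its values set 2 arrays at 24 h and 1 at 12 h against that array. Suffix A has 1 array at 24 h, replicate 1, so its 24 h values set that array against 2 undifferentiated arrays. The sterol level of 24 h replicate 1, -1.05, was the lowest of all arrays. Of the 17 enzymes, 8 were below 0 in all 3 suffixes at 24 h, among them 7 of the 9 called ones, while Fdft1 (0.29) and Mvd (0.27) were above 0 within suffix C. Dhcr7 differed by -1.86, -1.15 and -0.77 within suffixes A, B and C, Nsdhl by -1.45, -1.10 and -0.61, and Ebp by -0.93, -1.26 and -0.76. Of the 9 fatty acid genes, Fasn, Elovl6 and Elovl1 were below 0 in all 3 suffixes at 24 h, and Fads1, Fads2 and Scd2 were above 0 in all 3.

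**Figure D4:**
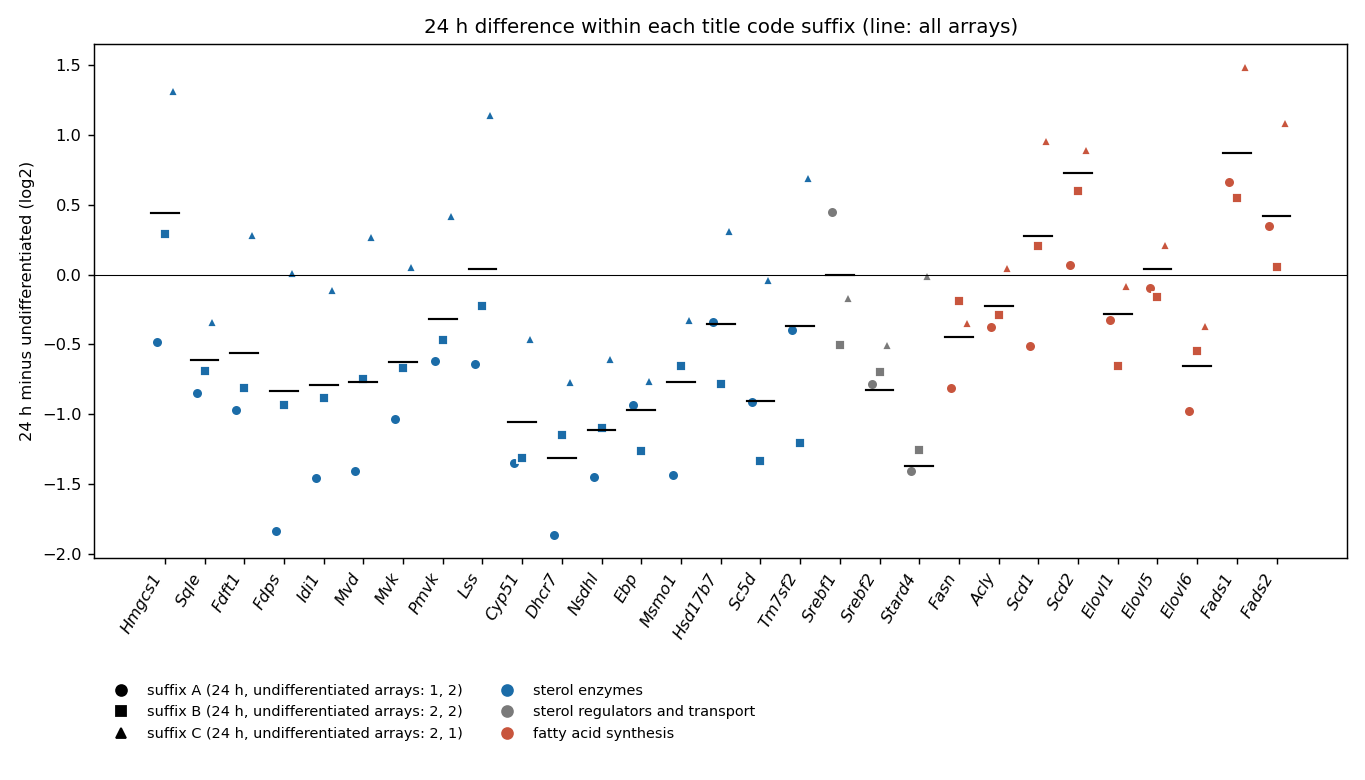
Difference at 24 h from undifferentiated cells within each title code suffix (points, log2 scale) and over all arrays (line) for the 29 tested genes, coloured by branch. The sterol enzymes have a median of -0.97 in suffix A and 0.01 in suffix C, while Dhcr7, Nsdhl and Ebp are below 0 in each suffix. Suffix A has 1 array at 24 h, and suffix C has 1 undifferentiated array.

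Several genes have more than 1 probe set, and these did not always move alike. Of 60 probe sets of the members 53 were above the filter level, and 17 genes had more than 1 of them. Their probe sets had the same sign in 17 of 17 genes at 12 h and 12 of 17 at 24 h. In a fit over 12556 probe sets, 13 of 28 for sterol enzymes fell at 24 h (10 of 17 genes), beside 18.2% of all probe sets, and 5 of 20 for fatty acid genes fell and 1 rose (9.73% of all rose). All 3 probe sets of Cyp51 fell, at -1.06, -1.23 and -0.60.

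The probe sets of Scd1 went apart: 1415964_at differed by 0.28 ± 0.25 at 24 h, while 1415965_at fell by 1.02 ± 0.19 (limma adjusted p = 0.00158), with groups that did not overlap. Both are annotated to the same gene, and their transcript ends were not examined. For Stard4 the second probe set, 1429239_a_at, fell by 1.31 ± 0.29 at 24 h (limma adjusted p = 0.00434), where the first did not pass. Second probe sets also passed for Idi1 (1423804_a_at, -0.81, limma adjusted p = 0.0480) and Mvk (1430619_a_at, -0.70, limma adjusted p = 0.0178). For Acly, 1425326_at passed (-0.88, limma adjusted p = 0.0416). The other Acly probe sets above the filter level, the one used among them, differed by -0.22, -0.29 and -0.06 at 24 h and did not pass. For Lss, 1420013_s_at differed by -0.93 and did not pass (limma adjusted p = 0.0669), beside 0.04 for the probe set used. Hmgcs1 had 3 probe sets from 0.25 to 0.46 and the fourth, 1433446_at, at -0.32.

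**Figure D5:**
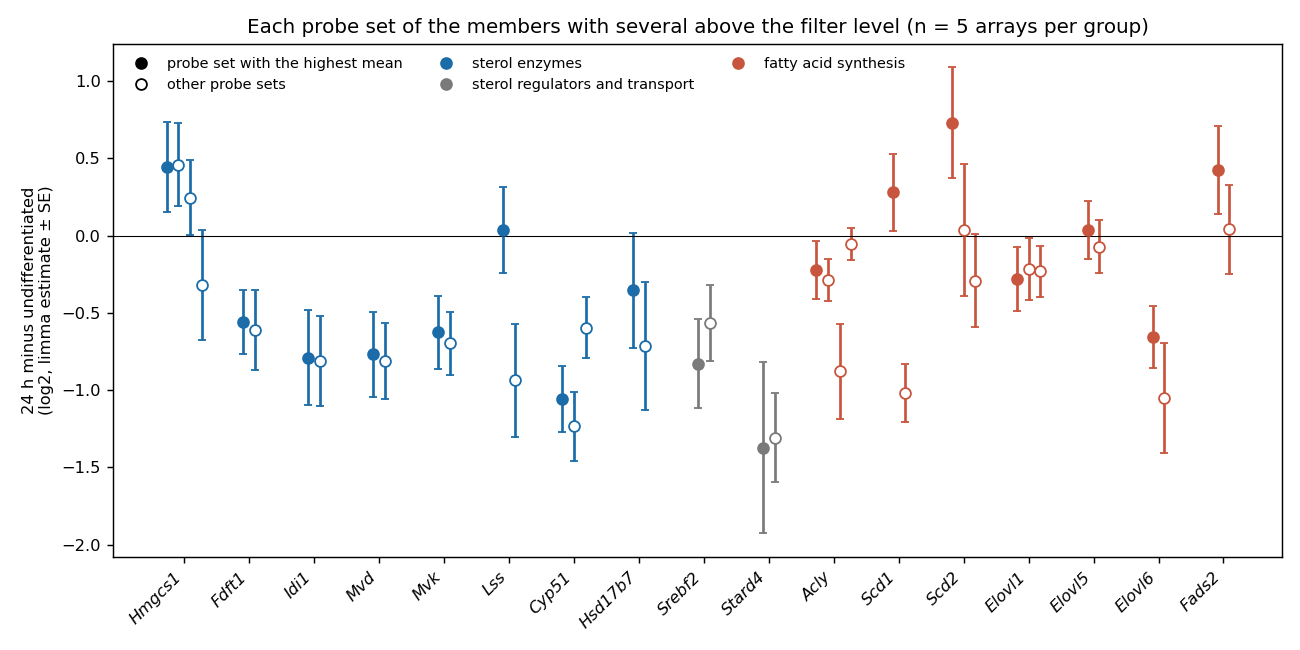
Difference at 24 h from undifferentiated cells for every probe set above the filter level of the genes that have several (log2 scale, limma estimate and SE, n = 5 arrays per group); filled points are the probe sets with the highest mean. For Scd1 the filled point is at 0.28 and the open point at -1.02, while the 3 points of Cyp51 all lie below 0.

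Other genes of lipid metabolism were counted from lists. Of 9 tested genes of further sterol synthesis, uptake and SREBP processing, 1 rose and 0 fell at each time, where 3.30% of all genes rose at 12 h and 12.7% at 24 h. That gene was Cyp46a1, the cholesterol 24-hydroxylase through which brain cells dispose of cholesterol, which rose by 0.61 ± 0.16 at 12 h (limma adjusted p = 0.0310) and 0.85 ± 0.16 at 24 h (limma adjusted p = 0.00134). Of 3 genes of sterol efflux and LXR targets, Abca1, the cholesterol exporter, rose at 24 h (1.45 ± 0.45, limma adjusted p = 0.0217), as did 12.7% of all genes.

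Of 18 further genes of fatty acid synthesis and elongation, 2 rose and 4 fell at 24 h, shares near those of all genes (12.7% and 19.4%), and 1 rose and 1 fell at 12 h (3.30% and 4.56% of all genes). Elovl7, an elongase, rose by 1.36 ± 0.27 at 24 h (limma adjusted p = 0.00177). Among the acyl-CoA synthetases, Acsl6 rose by 1.11 ± 0.23 at 12 h and 0.91 ± 0.23 at 24 h, and Acsl5 fell, by 1.03 ± 0.21 at 24 h (limma adjusted p = 0.00244). A further synthetase of the list also fell at 24 h (-0.84 ± 0.23, limma adjusted p = 0.0127). Lpin1, a phosphatidate phosphatase, differed by -0.85 at 12 h and -0.86 at 24 h and fell at both times (limma adjusted p = 0.0363 and 0.0113). Of 18 genes of fatty acid oxidation, 1 rose at 12 h (Cpt2, 0.58 ± 0.16; 3.30% of all genes rose) and 1 fell at 24 h (19.4% of all genes fell): Ppargc1a, a coactivator of oxidative metabolism, at -0.87 ± 0.17 (limma adjusted p = 0.00201).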

How the data were processed

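Total RNA of 15 samples (3 groups of 5) was measured on Affymetrix arrays with 22690 mouse probe sets. MAS5 is named in the submitters' processing notes. Its settings and scaling are not stated there. The deposited table holds 1 log10 value per probe set: the log base, not stated, was read from the hybridisation spike-ins, whose deposited values rose by 1.03 ± 0.0572 (SD, 15 arrays) per log10 unit of concentration. The deposited log10 values were multiplied by 3.32 to give log2 and not normalised further. Array medians ran from 0.287 to 0.453 (log10), and the offset is unknown. The number of arrays limits the precision. Levels of different probe sets are not compared.

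Probe sets with 1 symbol were used, those with the highest mean per gene. Genes above the 40th percentile were fitted together with limma 3.58.1 in R 4.3.3 (group means, eBayes with trend, Benjamini-Hochberg adjustment). The fit was checked on simulated data with independent noise. These lack the deviations that the real arrays share, so the check cannot show the error rate in the real data. The files were log10 where log2 had been assumed, and the test was otherwise kept. Members, lists and step groups were chosen with earlier results of these data known. All members are described, those called or central to the branch comparison array by array, and of each other list at most the 4 genes with the smallest p. Alternatives were normalisation, filter, pseudocount, probe set rule, variance model, blocks, groups, single arrays and the actin ratio. One alternative, the fit over probe sets, was chosen after the data were seen.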

Additional observations from a re-analysis of the deposited data

Results flagged for a closer look

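In 9 of 90 member and group combinations (10%), 1 array of the 5 stood apart from the others, its gap to the nearest exceeding 0.71 of the group's range; chance alone flags about 1 in 20. At 12 h, replicate 1 was low for Idi1 (4.33, others 5.48 to 5.63), Mvk (2.13, others 2.76 to 2.90) and Cyp51 (5.06, others 5.50 to 5.65), and replicate 2 was high for Nsdhl (5.84, others 5.32 to 5.47). At 24 h, replicate 4 was high for Ebp (2.92, others 2.33 to 2.44). Undifferentiated replicate 5 was low for Srebf2 (3.48, others 4.43 to 4.74) and Stard4 (0.99, others 3.51 to 4.19), and 12 h replicate 5 was low for Stard4 (1.04, others 2.30 to 2.70). These 2 arrays share suffix C. Undifferentiated replicate 1 was low for Acaca (-0.043, others 0.25 to 0.36), which was below the filter.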

How the results depend on the processing

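The labels state no pairing of samples, and no paired test was made. The title code suffix and the runs of consecutive title codes, whose meaning is not stated, were used as blocks instead. Of the 29 tested members, 3 passed at 12 h, 13 at 24 h and 0 between 12 h and 24 h. Of all 7909 genes, 622, 2536 and 33 passed in the same comparisons. With the suffix block the member counts were 7, 18 and 1 (1476, 3308 and 202 of all genes). With runs of title codes as a random block they were 6, 18 and 1 (1458, 3309 and 235 of all genes). With groups by file codes, and with the actin ratio as a covariate, 0 passed at 12 h and 0 at 24 h, so that no branch had a gene that fell or rose. The actin ratio largely followed the group, so the fit with it as a covariate cannot tell the ratio and the group apart. Leaving out 1 array gave 1 to 5 members at 12 h (174 to 1005 of all genes) and 7 to 17 at 24 h (2012 to 2804 of all genes). At 24 h the count was 8 without undifferentiated replicate 4, 7 without 24 h replicate 1 and 7 without 24 h replicate 5. At 12 h, 1 was left without any single one of undifferentiated replicates 1 to 4 or 12 h replicates 1, 2 and 5. The 12 h count was 5 without undifferentiated replicate 5 (230 of all genes). The 2 sterol enzymes that fell at 12 h became 4 under either block (10.7% and 10.4% of all genes fell). They became 1 with no filter, the mean of all probe sets, no variance trend, only the 2 groups compared, 12 h replicates 3 and 4 averaged or left out, or the fit over probe sets. In those fits over genes, 2.65% to 14.8% of all genes fell. Leaving out an array gave 0 to 3 sterol enzymes at 12 h (1.3% to 8.21% of all genes) and 6 to 12 at 24 h (15.3% to 21.4% of all genes). At 12 h it gave 0 without any single one of undifferentiated replicates 1 to 4 or 12 h replicates 1, 2 or 5, and 3 without undifferentiated replicate 5. The 2 fatty acid genes that fell at 24 h became 1 under median centring (14.1% of all genes fell) and 0 without suffix C (7.74% of all genes). With an array left out they became 0 to 2 (15.3% to 21.4% of all genes). The 1 that rose became 2 under either block (1434 and 1332 of all genes rose) and 0 without suffix C (516 of all genes). The branch medians differed by -0.51 at 12 h (0.064 with file codes, 0.11 within suffix C, -0.67 to -0.30 with an array left out) and by -0.81 at 24 h (-0.37 with the mean of all probe sets, -0.18 with file codes, -0.20 within suffix C, -0.99 to -0.53 with an array left out). Signs turned with file codes for Dhcr7 (0.13), Nsdhl (0.086) and Fasn (0.13) at 12 h and Fads1 (-0.16) at 24 h, and within suffix C for Fdft1 (0.29) and Mvd (0.27) at 24 h; the cause was not tested. Over all genes at 24 h, 1003 rose and 1533 fell. These counts were 1585 and 1315 after quantile normalisation and 1419 and 1112 after median centring. Median centring moved the median of all genes from -0.06 to 0.08. It shifts all genes of an array alike, so the sterol median relative to that of all genes stayed at -0.71 by construction. After quantile normalisation this relative median was -0.72. The 24 h difference of Srebf1 was 0.14 under median centring and that of Elovl5 -0.18 under quantile normalisation, and the fatty acid median at 24 h was -0.14 under quantile normalisation. At 12 h, 622 genes passed, against 1476 with the suffix block, 170 with the actin ratio and 70 without suffix C; at 24 h, 2536 passed, against 34 with the actin ratio and 1128 without suffix C.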
